A study of Mus musculus with 9 samples.

Results

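SB28 is a mouse glioma line, and the 6 libraries described here were made from SB28 tumor cells taken back out of the brain. The 3 BAL101553 libraries were compared with the 3 control libraries over every gene that passed the filter on low counts (edgeR's filterByExpr), which kept 12633 of 24421 rows of the count table. The series holds 9 libraries, and the 3 labelled astrocytes were left out of the fit. The emphasis is on functions other than interferon response, immune checkpoints and tubulins.

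Both groups shared the same model. SB28 cells carrying GFP and luciferase were implanted orthotopically in C57BL/6J mice aged 6 to 8 weeks. Control mice received vehicle and the others received BAL101553, an oral prodrug of a microtubule-binding agent, by gavage. Tumor cells were sorted as CD45-CD11b-GFP+ cells from brain, although the labels call the material whole tissue. Control tumors were harvested at day 21, and treated tumors later, at day 33 or day 35 in different passages of the study, when their volume matched. Drug and harvest day therefore cannot be told apart in any value below. SB28 is 1 cell line, and the labels do not state that the libraries of a group came from separate mice, so the p-values measure only the spread between these libraries. The study text gives 2 ex vivo samples per group, whereas the count table holds 3.

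A tumor cell in the brain builds part of its own surroundings. Collagens form fibers, small leucine-rich proteoglycans sit on those fibers and set their spacing, and elastin with its microfibrils gives recoil. Inside the cell, ribosomes, proteasomes and the respiratory chain are large complexes whose subunit genes tend to be expressed in step. Small nucleolar RNAs (snoRNAs) guide chemical modification of ribosomal RNA and are usually cut out of the introns of host genes.

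The libraries held 24540452 to 34013875 counts. Of the genes tested, 1860 (14.7%) passed an adjusted p of 0.05 in edgeR's quasi-likelihood test. BAL101553 libraries were higher for 1091 of them (8.64% of genes tested) and lower for 769 (6.09%). These shares are the ones to set every list count below against. Among genes called, rises were larger than falls: 452 rises reached 2-fold against 105 falls. The median log2 fold change was 0.85 among rises and -0.51 among falls. The sizes are not compared at like levels. In the most abundant of 10 bins 5.3% of genes were called higher and 15.7% lower, and in the least abundant 9.65% and 1.27%. The split between directions depended on scaling. Scaled to library totals, 1456 genes were higher and 425 lower, and the median of all genes moved from 0.02 to 0.10. With each library's trend with transcript length and GC content removed, 757 were higher and 1221 lower, and that median moved to -0.07.

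Single libraries weighed heavily on the number of calls. It was 458 without control replicate 1, 193 without control replicate 3, 1133 without BAL101553 replicate 1 and 668 without BAL101553 replicate 3. On the first principal component, which held 67.3% of the variance, control replicate 1 and BAL101553 replicate 2 lay at the ends. Without both, 833 genes were called, of which 699 were among the 1860. Of 171 genes picked by the naming rule, 170 passed in the full comparison and 32 passed in each of the 6 fits that left out 1 library. Where a gene below that the rule picked passed in all 6, this is stated. Genes named outside the rule were not checked in these 6 fits.

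**Figure D1:**
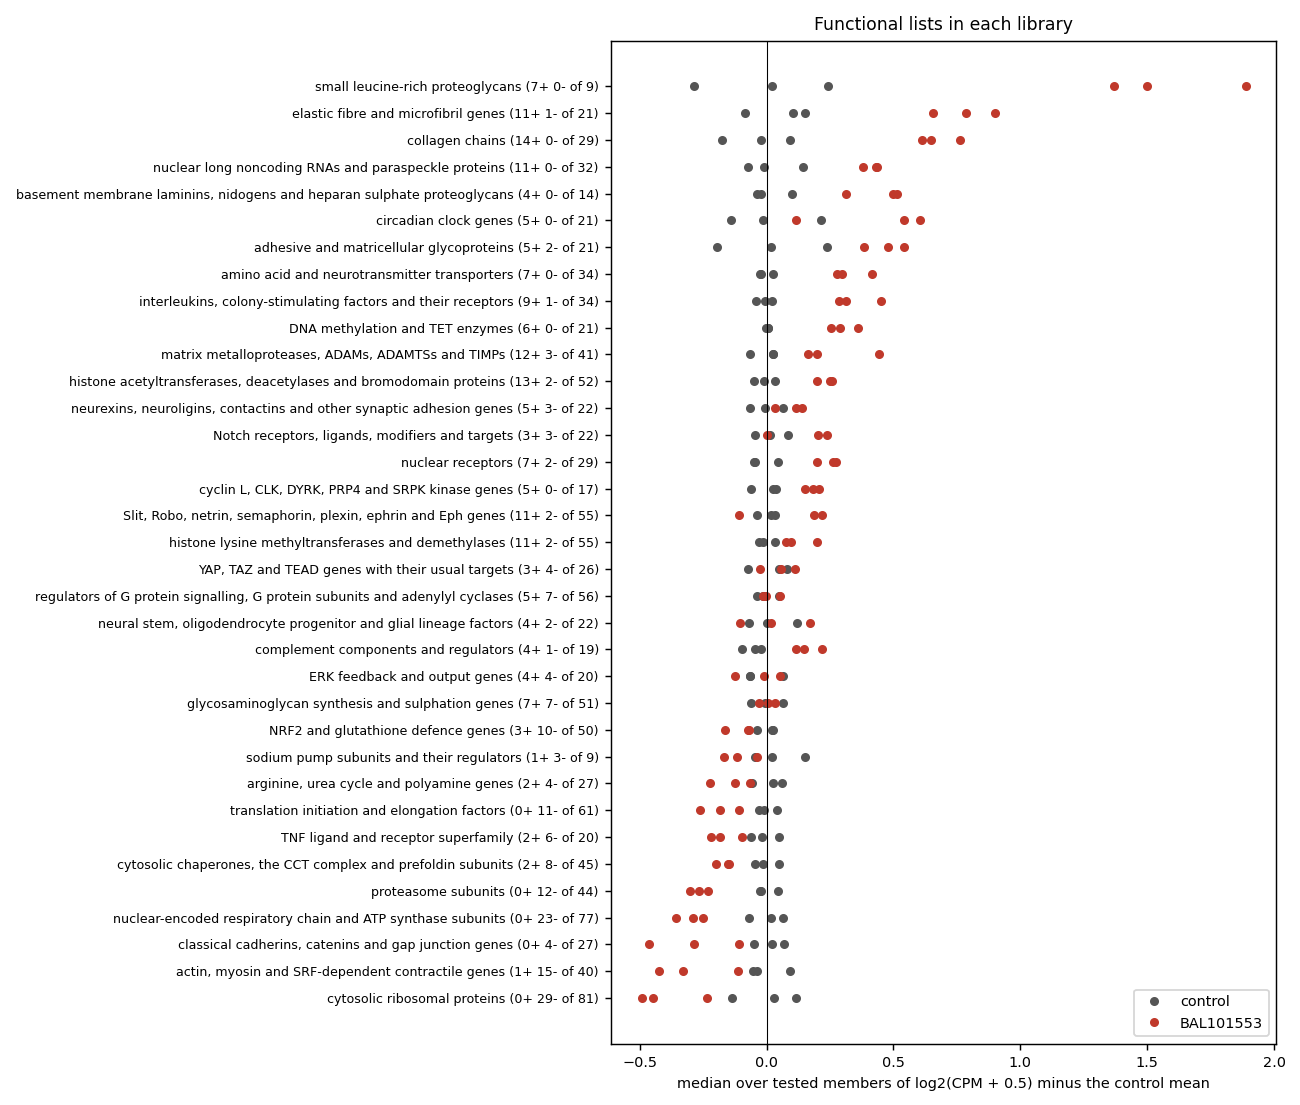
Median over the tested members of each functional list of log2(CPM + 0.5) minus the control mean, 1 point per library, with members called higher (+) and lower (-) after each name. Small leucine-rich proteoglycans, elastic fiber genes and collagens lie farthest to the right in each BAL101553 library. Cytosolic ribosomal proteins lie farthest to the left in BAL101553 replicates 1 and 3, and cadherins in replicate 2.

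Many genes of the extracellular matrix were higher with BAL101553. Of 29 collagen genes tested (44 in the table), 14 were called higher and none lower, against 8.64% higher and 6.09% lower among all genes tested, and the median log2 fold change of the list was 0.74. Col6a3, a chain of the beaded-filament collagen VI, went from 186, 691 and 408 CPM in the control libraries to 1262, 2382 and 1747 CPM with BAL101553 (log2 fold change 2.07 ± 0.45 (SE), adjusted p = 0.0248). Col15a1, a collagen at basement membrane borders, had 1.02, 1.17 and 1.54 CPM in the control libraries and 3.51, 6.25 and 3.98 CPM in the BAL101553 libraries (log2 fold change 1.88 ± 0.31 (SE), adjusted p = 0.0133). For Col28a1, a minor collagen, the values were 0.679, 1.13 and 0.67 CPM in the control libraries and 2.48, 3.4 and 2.02 CPM in the BAL101553 libraries (log2 fold change 1.65). The groups did not overlap for any of the 3, which the naming rule required. Of all genes tested, 20.6% had every BAL101553 library above every control library. The main fibrillar chains Col1a1 and Col3a1 were also called higher. Their log2 fold changes were 0.49 for Col1a1 and 0.89 for Col3a1.

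The largest median among the lists belonged to the proteoglycans. Of 9 small leucine-rich proteoglycan genes tested (15 in the table), 7 were called higher and none lower, with a median of 2.11. Asporin (Aspn), which binds collagen and TGF-β, had 0.17, 1.03 and 0.118 CPM in the control libraries and 18.4, 29.9 and 18.2 CPM in the BAL101553 libraries (log2 fold change 5.58 ± 0.59 (SE), adjusted p = 0.00608). Osteoglycin (Ogn) went from 0.255, 1.27 and 0.867 CPM in the control libraries to 5.7, 13.1 and 8.6 CPM with BAL101553 (log2 fold change 3.48 ± 0.52 (SE), adjusted p = 0.0104). Prelp, which anchors basement membranes to connective tissue, had 0.127, 0.177 and 0.394 CPM in the control libraries and 1.54, 1.12 and 2.18 CPM in the BAL101553 libraries (log2 fold change 2.78 ± 0.48 (SE), adjusted p = 0.0141). All 3 genes stayed at or under 1.27 CPM in controls. Aspn passed in each fit that left out 1 library. One of the 9 genes, Prelp, averaged under 10 counts in controls, so it could pass the filter only through the BAL101553 libraries. Its values are therefore no separate support for a rise. Of the remaining 8 genes, 6 were called.

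Elastic fiber genes followed the same direction, with 11 of 21 higher, 1 lower and a median of 0.78. Ltbp2, a microfibril protein, went from 14, 12 and 10.1 CPM in the control libraries to 84.6, 109.7 and 114 CPM with BAL101553 (log2 fold change 3.09 ± 0.17 (SE), adjusted p = 0.00104) and passed in each fit that left out 1 library. Elastin (Eln) had 1.06, 6.76 and 3.86 CPM in the control libraries and 27.4, 201 and 31 CPM in the BAL101553 libraries (log2 fold change 4.45 ± 0.95 (SE), adjusted p = 0.0245). Mfap4, a microfibril-associated protein, was nearly absent from controls, with 0, 0.177 and 0.0394 CPM in the control libraries and 2.51, 26.5 and 2.05 CPM in the BAL101553 libraries (log2 fold change 6.98). In both Eln and Mfap4 the second BAL101553 library stood far above the other 2. Mfap4 averaged under 10 counts in controls, so it could pass the filter only through the BAL101553 libraries. Fbln2, a fibulin, was the member called lower, from 2684, 2328 and 3171 CPM in the control libraries to 1760.3, 1868 and 1864 CPM with BAL101553 (log2 fold change -0.58 ± 0.13 (SE), adjusted p = 0.0271).

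Laminins and matricellular proteins gave smaller shares. Of 14 basement membrane genes, 4 were called higher and none lower (median 0.47). Lama5, a laminin chain, had 49.6, 42.9 and 29.8 CPM in the control libraries and 376, 283 and 106 CPM in the BAL101553 libraries (log2 fold change 2.65 ± 0.43 (SE), adjusted p = 0.0129). Lama2, another chain, went from 0.255, 0.708 and 0.513 CPM in the control libraries to 2, 7 and 2.32 CPM with BAL101553 (log2 fold change 2.90). The matricellular list had 5 of 21 higher and 2 lower. Periostin (Postn), which crosslinks collagen networks, had 14.9, 26.8 and 19.9 CPM in the control libraries and 134, 317 and 125 CPM in the BAL101553 libraries (log2 fold change 3.22 ± 0.40 (SE), adjusted p = 0.00728), and thrombospondin 3 (Thbs3) went from 9.89, 17.5 and 12.8 CPM in the control libraries to 41.9, 58 and 40.0 CPM with BAL101553 (log2 fold change 1.80 ± 0.23 (SE), adjusted p = 0.00738). Both passed in each fit that left out 1 library. Thrombospondin 1 (Thbs1), which activates latent TGF-β, fell from 1477, 1687 and 1721 CPM in the control libraries to 1153, 1115 and 1048 CPM with BAL101553 (log2 fold change -0.56 ± 0.10 (SE), adjusted p = 0.016), and Ctgf fell by 0.61 on the log2 scale.

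Of 41 metalloproteases, ADAMs, ADAMTSs and their inhibitors, 12 were higher and 3 lower. Among them, Adam33 averaged under 10 counts in controls, so it could pass the filter only through the BAL101553 libraries. Adam33 had 0.127, 0.0354 and 0 CPM in the control libraries and 1.8, 4.98 and 1.58 CPM in the BAL101553 libraries (log2 fold change 5.62 ± 0.83 (SE), adjusted p = 0.01), and Mmp13, a collagenase, went from 21.3, 7.44 and 33.5 CPM in the control libraries to 75.4, 85.3 and 44.6 CPM with BAL101553 (adjusted p = 0.0499). Timp1, an inhibitor of these proteases, fell from 1800.5, 1096 and 1306 CPM in the control libraries to 729, 689 and 601 CPM with BAL101553 (log2 fold change -1.06 ± 0.18 (SE), adjusted p = 0.0141). By contrast, the enzymes that fold and assemble collagen gave 2 higher and none lower of 24, with a median of 0.02, and integrins gave 1 higher and 1 lower of 20.

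The matrix counts shrank when libraries were left out, while the medians moved little. Collagens called higher numbered 7 without control replicate 1, 2 without control replicate 3 and 9 without BAL101553 replicate 3. Proteoglycans numbered 4 without control replicate 1 and 3 without control replicate 3. For elastic fiber genes the count was 5, 4 and 6 without control replicate 1, control replicate 3 and BAL101553 replicate 3, and 7 without either BAL101553 replicate 1 or replicate 2. Medians over these fits ran from 0.64 to 0.73 for collagens, from 1.87 to 2.35 for proteoglycans and from 0.59 to 0.84 for elastic fiber genes. Without control replicate 1 and BAL101553 replicate 2 together, 10 collagens, 6 proteoglycans and 7 elastic fiber genes were called higher. Among members that averaged at least 10 counts in both groups, 13 of 27 collagens, 10 of 20 elastic fiber genes and 10 of 39 metalloprotease genes were higher. The basement membrane count was 2 without control replicate 1 and 1 without control replicate 3, and the matricellular count of higher genes was 3, 2 and 3 without control replicate 1, control replicate 3 and BAL101553 replicate 3. The metalloprotease count was 4 without control replicate 1, 1 without control replicate 3 and 7 without control replicate 2, BAL101553 replicate 1 or BAL101553 replicate 3.

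These genes are also made by fibroblasts, so markers of other cells were read beside them, in CPM scaled over all 9 libraries. Summed over 15 genes used for meningeal fibroblasts, the level was 9396 to 10069 CPM in control and 14339 to 15543 CPM in BAL101553 libraries, but collagens of the comparison itself carried most of that sum. Slc22a6 was at 0 in all 6 libraries, Slc6a13 was at most 0.04 CPM and Lum exceeded 1 CPM only in BAL101553 replicate 2, at 4.46 CPM. Other members were present: Dcn had 3.81, 5.68 and 5.39 CPM in the control libraries and 15.9, 13.4 and 34.7 CPM in the BAL101553 libraries, and Crabp2, Foxc1 and Zic1 were above 20 CPM in all 6. Of the 11 tested, 4 were called higher and 1 lower. Pericyte genes summed to 303 to 328 CPM in controls and 414 to 447 CPM with BAL101553, with Higd1b at 0. Most of that sum was Pdgfrb, a receptor also found on fibroblasts, with 217, 266 and 249 CPM in controls and 350, 374 and 355 CPM with BAL101553, and 2 of 5 tested members were called higher and 1 lower. Endothelial genes summed to 773 to 908 and 563 to 687 CPM, with Pecam1 at most 1.21 CPM. Microglial genes summed to 155 to 213 and 88.7 to 117 CPM, and Ptprc stayed at or under 0.34 CPM. Much of that sum was Laptm5, with 143, 97.6 and 95.4 CPM in controls and 47.4, 14.2 and 51.1 CPM with BAL101553. Of the 20 microglial genes, 15 stayed below 1 CPM in all 6 libraries, and of the 11 tested none was called higher and 2 lower. Neuronal genes summed to 194 to 227 and 258 to 412 CPM, with Rbfox3 at 0. Thy1, at 103, 59.9 and 36.3 CPM in controls and 205, 296 and 136 CPM with BAL101553, was the main riser, Eno2 and Camk2a were also called higher, and 3 of 11 tested members were higher and 1 lower. Astrocyte genes summed to 1084 to 1157 and 775 to 936 CPM, with Aqp4 at most 0.21 CPM. T cell genes summed to at most 0.30 CPM, and all 9 erythroid genes were at 0. The part of these cells in the matrix result was not tested. In sorted bulk samples, more cells of a type and more RNA per cell cannot be told apart.

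**Figure D2:**
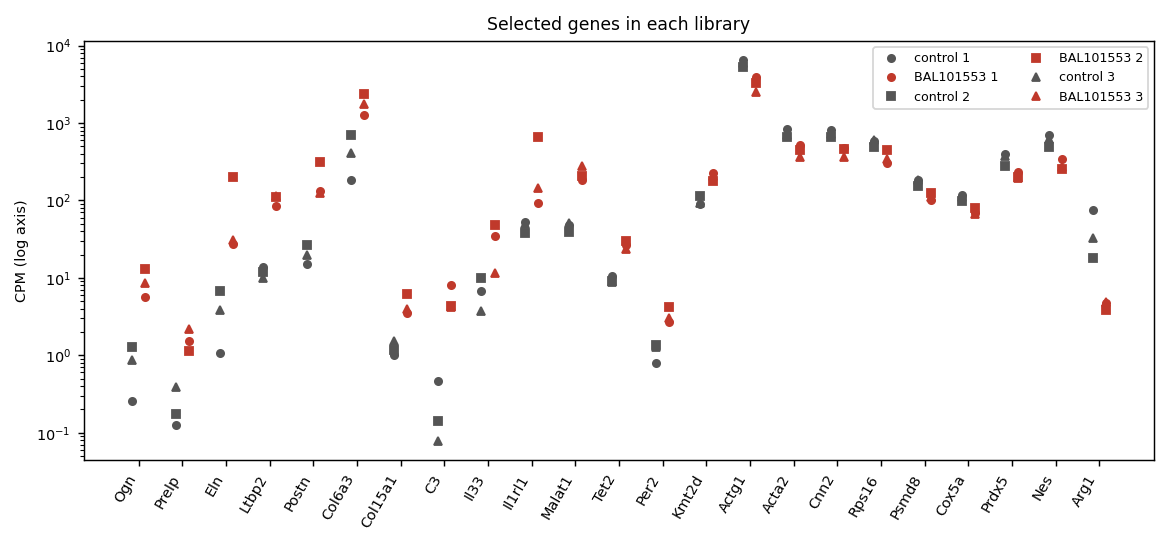
CPM of genes described in the text in each library on a log axis, with control libraries in grey and BAL101553 libraries in red and 1 symbol per replicate number. Genes from Ogn to Kmt2d are higher with BAL101553, and genes from Actg1 to Arg1 are lower. The steps of the first set are mostly larger, as for Ltbp2 (log2 fold change 3.09) against Rps16 (-0.60).

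Secreted and surface signals changed in both directions. Of 55 genes for axon guidance families, 11 were higher (20%) and 2 lower (3.64%), against 8.64% and 6.09% of all genes tested. The list median was 0.13 and turned to -0.04 once the length and GC trend was removed. The repellent ligand Slit3 went from 71.6, 114 and 90.7 CPM in the control libraries to 304, 328 and 318 CPM with BAL101553 (log2 fold change 1.78 ± 0.16 (SE), adjusted p = 0.00608). Sema3d, a secreted semaphorin, had 0.34, 0.39 and 0.237 CPM in the control libraries and 2.28, 6.81 and 4.84 CPM in the BAL101553 libraries (log2 fold change 3.83 ± 0.48 (SE), adjusted p = 0.00728). Efna5, an ephrin ligand, went from 16.3, 13.3 and 13.2 CPM in the control libraries to 36.5, 41.1 and 32 CPM with BAL101553 (log2 fold change 1.36 ± 0.14 (SE), adjusted p = 0.00608). All 3 passed in each fit that left out 1 library. The guidance count was 5 without control replicate 1, 3 without control replicate 3 and 5 without BAL101553 replicate 3. Sema3d averaged under 10 counts in controls, so it could pass the filter only through the BAL101553 libraries. Among the 52 members that averaged at least 10 counts in both groups, 9 were higher and 2 lower.

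Interleukins, colony-stimulating factors and their receptors gave 9 higher and 1 lower of 34. Il33, an alarmin, had 6.83, 9.88 and 3.78 CPM in the control libraries and 35.1, 48.7 and 11.6 CPM in the BAL101553 libraries (log2 fold change 2.21 ± 0.53 (SE), adjusted p = 0.033). Its receptor Il1rl1 went from 52.1, 38.4 and 50.3 CPM in the control libraries to 93.2, 651 and 145 CPM with BAL101553 (log2 fold change 2.66 ± 0.67 (SE), adjusted p = 0.0382), and here BAL101553 replicate 2 lay far above the others. Csf2, which encodes GM-CSF, fell from 3.01, 2.02 and 5.16 CPM in the control libraries to 0.805, 1.01 and 0.995 CPM with BAL101553 (log2 fold change -1.85 ± 0.38 (SE), adjusted p = 0.022). The count of higher genes was 3 without control replicate 1 and 0 without control replicate 3, and 6 without control replicate 2, BAL101553 replicate 1 or BAL101553 replicate 3. Chemokines and their receptors gave 1 called of 22.

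The TNF family gave 2 higher and 6 lower of 20. Among the 18 members that averaged at least 10 counts in both groups, 1 was higher and 6 lower. Tnfsf11, which encodes RANKL, had 0.297, 0.425 and 0.315 CPM in the control libraries and 2.12, 2.69 and 1.22 CPM in the BAL101553 libraries (log2 fold change 2.51 ± 0.40 (SE), adjusted p = 0.0123). Tnfsf11 averaged under 10 counts in controls, so it could pass the filter only through the BAL101553 libraries and is not among those 18. Its receptor Tnfrsf11a, which is among them, went from 4.03, 4.39 and 3.9 CPM in the control libraries to 8.46, 11 and 10.1 CPM with BAL101553 (log2 fold change 1.26 ± 0.17 (SE), adjusted p = 0.00832), and passed in each fit that left out 1 library. Among decoy receptors for TRAIL, Tnfrsf23 fell from 316, 124 and 185 CPM in the control libraries to 107, 96.7 and 93.9 CPM with BAL101553 (log2 fold change -1.07). No member was called lower without control replicate 1 or control replicate 3, 1 without each single BAL101553 library, and 4 without control replicate 2. Median fold change was -0.20 and was positive where genes with a single count were kept (0.10) and in the fit of all 9 libraries (0.12).

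Complement component C3, the central protein of that cascade, was among the largest rises of the table, from 0.467, 0.142 and 0.0789 CPM in the control libraries to 8.14, 4.38 and 4.2 CPM with BAL101553 (log2 fold change 4.61 ± 0.57 (SE), adjusted p = 0.00728). Masp1, a lectin pathway protease, had 9.51, 10.7 and 9.58 CPM in the control libraries and 26.5, 29.6 and 26.2 CPM in the BAL101553 libraries (log2 fold change 1.46 ± 0.12 (SE), adjusted p = 0.0043). Both passed in each fit that left out 1 library. Over 19 complement genes, 4 were higher and 1 lower with a median of 0.00. The count of higher members was 2 without control replicate 3. C3 averaged under 10 counts in controls, so it could pass the filter only through the BAL101553 libraries. Among the 14 members that averaged at least 10 counts in both groups, 2 were higher and 1 lower.

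ERK feedback genes split, with 4 higher and 4 lower of 20 (20% each way), against 8.64% higher and 6.09% lower among all genes tested. Spry1, an inhibitor of receptor tyrosine kinase signals, had 4.88, 10.2 and 7.45 CPM in the control libraries and 18.1, 38 and 34 CPM in the BAL101553 libraries (log2 fold change 2.0 ± 0.34 (SE), adjusted p = 0.0137). Dusp5, a nuclear ERK phosphatase, fell from 53.3, 68.5 and 74.7 CPM in the control libraries to 31.4, 24.3 and 28.6 CPM with BAL101553 (log2 fold change -1.22 ± 0.15 (SE), adjusted p = 0.00728) and passed in each fit that left out 1 library. YAP and TEAD genes gave 3 higher (11.5%) and 4 lower (15.4%) of 26. Amot, which holds YAP outside the nucleus, went from 16.4, 15.5 and 16.1 CPM in the control libraries to 40.4, 43 and 31.7 CPM with BAL101553 (log2 fold change 1.26 ± 0.14 (SE), adjusted p = 0.00608), and Nuak2, a kinase and YAP target, went from 15.8, 16.8 and 12.9 CPM in the control libraries to 7.18, 6.47 and 8.13 CPM with BAL101553 (log2 fold change -1.06 ± 0.16 (SE), adjusted p = 0.0107). Both passed in each fit that left out 1 library. Notch genes gave 3 higher and 3 lower of 22 (13.6% each way). The ligand Jag1 fell from 80.2, 50.2 and 90.8 CPM in the control libraries to 34.4, 13.1 and 36.7 CPM with BAL101553 (log2 fold change -1.39 ± 0.38 (SE), adjusted p = 0.0462). With any 1 library left out, at most 2 Notch genes were called in either direction. Without control replicate 3, the ERK list gave 0 higher and 1 lower, and the YAP list 2 higher and 1 lower.

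Several RNAs that stay in the nucleus, among them Malat1, were higher with BAL101553. They belong to a wider list that also held snoRNA host genes and genes of paraspeckle proteins. Of its 32 members tested, 11 were called higher and none lower (median 0.64). This is not a count of RNAs that stay in the nucleus. Malat1, a nuclear speckle RNA, had 48.2, 38.7 and 50.7 CPM in the control libraries and 183, 207 and 278 CPM in the BAL101553 libraries (log2 fold change 2.28 ± 0.18 (SE), adjusted p = 0.0043). Firre, an RNA that organizes nuclear contacts, went from 3.4, 2.41 and 4.42 CPM in the control libraries to 11.7, 12.9 and 11 CPM with BAL101553 (log2 fold change 1.80 ± 0.23 (SE), adjusted p = 0.00738). Both passed in each fit that left out 1 library. Neat1, the scaffold of paraspeckles, was also called (log2 fold change 1.45). The count was 5, 6 and 7 without control replicate 1, control replicate 3 and BAL101553 replicate 3, and the median stayed between 0.35 and 0.73 under every setting.

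Host genes of snoRNAs formed part of that list, which led to the snoRNAs themselves, a group chosen after its values were seen. The table held 120 snoRNA genes, 29 passed the filter, 22 were called higher and none lower. Summed over the 29, counts were 319 to 364 per control library and 1090 to 1645 per BAL101553 library. Only 10 of the 29 averaged at least 10 counts in both groups, so the others could enter through the BAL101553 libraries alone, and the count of 22 rests partly on that entry. Among those 10, 5 were called higher, and they are shown because their counts do not rest on that entry. The sequences are GENCODE transcripts on mm10, written 5′ to 3′ with T for U. Capitals mark the ACA box near the end of the H/ACA type and, in the C/D type, the C box TGATGA and the D box CTGA where these letters were found.
Snora65: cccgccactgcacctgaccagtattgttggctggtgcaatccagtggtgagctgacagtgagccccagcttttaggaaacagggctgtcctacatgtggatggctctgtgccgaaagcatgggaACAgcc
Snora31: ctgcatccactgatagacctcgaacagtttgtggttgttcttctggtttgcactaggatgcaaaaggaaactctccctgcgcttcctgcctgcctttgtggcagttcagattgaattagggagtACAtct
Snora70: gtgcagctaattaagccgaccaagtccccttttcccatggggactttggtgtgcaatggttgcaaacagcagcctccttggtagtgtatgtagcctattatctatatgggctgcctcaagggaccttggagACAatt
Snord2: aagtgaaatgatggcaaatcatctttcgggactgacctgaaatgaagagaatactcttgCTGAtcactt
Snord96a: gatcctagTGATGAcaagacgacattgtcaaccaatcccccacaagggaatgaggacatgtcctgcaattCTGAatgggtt

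Snora65 lies at chr2:32963291-32963420 on the plus strand, within Rpl12. It had 81, 68 and 81 counts in the control libraries and 232, 211 and 345 counts with BAL101553 (log2 fold change 1.46, adjusted p = 0.0093). Rpl12 itself, a ribosomal protein gene, fell by 0.39 on the log2 scale (adjusted p = 0.044). Snora31 lies at chr14:75847905-75848034 within Tpt1, and had 33, 30 and 36 counts against 117, 105 and 123 (log2 fold change 1.51). Snord96a, at chr11:48802032-48802112, rose by a log2 fold change of 2.0 (adjusted p = 0.01).

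A tested host gene on the same strand was found for 26 of the 29 snoRNAs. Of these, 8 averaged at least 10 counts in both groups, and in all 8 the snoRNA had the larger log2 fold change. Over the 21 distinct hosts, 11 of them ribosomal protein genes, the median was -0.32, with 3 called higher and 2 lower. Reads from an intron of unspliced host RNA and from the snoRNA itself cannot be told apart in these counts, and the strand setting of the counting is not given in the sources used here.

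**Figure D3:**
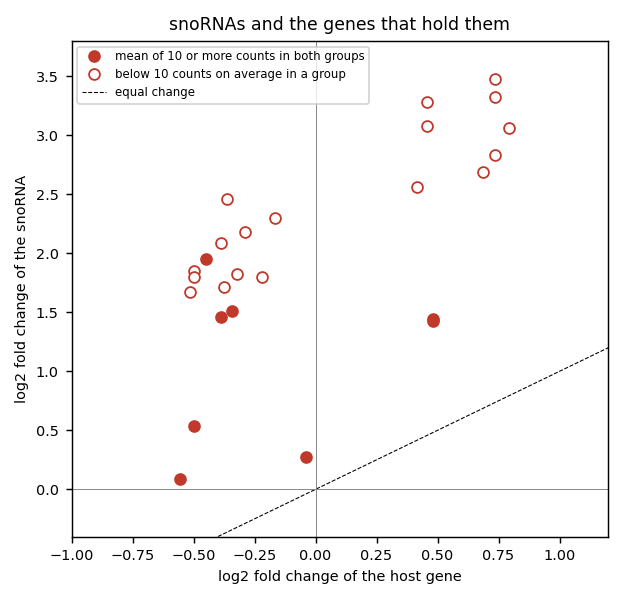
Log2 fold change of each snoRNA against that of the tested gene that holds it, 26 snoRNAs in 21 hosts, with filled points where both groups averaged 10 counts or more. The filled points lie above the dashed line of equal change, and many hosts lie left of 0.

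Among regulators of splicing and chromatin, most members did not pass. Of 17 cyclin L, CLK, DYRK and SRPK genes, 5 were higher and none lower. Ccnl2, a speckle cyclin, went from 20.9, 22.2 and 24.8 CPM in the control libraries to 59.2, 56.4 and 57.5 CPM with BAL101553 (log2 fold change 1.35 ± 0.10 (SE), adjusted p = 0.0043) and passed in each fit that left out 1 library. The count was 1 without control replicate 1, 1 without control replicate 3, 2 without control replicate 2 and 2 without BAL101553 replicate 3. Among all genes tested, 8.64% were higher and 6.09% lower. Splicing factors of the SR and hnRNP families gave 5 higher (12.5%) and none lower of 40. Core spliceosome genes gave 3 higher (5.56%) and 6 lower (11.1%) of 54 (median -0.17). Without control replicate 3, these counts were 1 higher for the SR and hnRNP families and 1 higher and 0 lower for the core genes. Without control replicate 1 they were 3, 1 and 0, without control replicate 2 they were 3, 3 and 2, and without BAL101553 replicate 3 they were 3, 2 and 1. Without BAL101553 replicate 1, 3 core genes were lower.

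Histone methyltransferases and demethylases gave 11 higher and 2 lower of 55, with a median of 0.09 that turned to -0.04 once the length and GC trend was removed. The H3K4 methyltransferase Kmt2d had 88.9, 114 and 92.8 CPM in the control libraries and 223, 180.4 and 207 CPM in the BAL101553 libraries (log2 fold change 1.05 ± 0.13 (SE), adjusted p = 0.00728), and its relative Kmt2a went from 87.3, 113 and 88.8 CPM in the control libraries to 182, 193 and 178 CPM with BAL101553 (log2 fold change 0.93 ± 0.12 (SE), adjusted p = 0.00728). Suv39h1, which methylates H3K9, fell from 169, 172 and 229.9 CPM in the control libraries to 99.9, 112 and 109 CPM with BAL101553 (log2 fold change -0.83 ± 0.13 (SE), adjusted p = 0.0123). All 3 passed in each fit that left out 1 library. The count of higher members was 6, 2 and 5 without control replicate 1, control replicate 3 and BAL101553 replicate 3.

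Acetylation genes gave 13 higher and 2 lower of 52. Hdac9, a class IIa deacetylase, went from 2.04, 4.43 and 2.33 CPM in the control libraries to 9.3, 14.5 and 8.96 CPM with BAL101553 (log2 fold change 1.89 ± 0.34 (SE), adjusted p = 0.0159), and the corepressor Sin3b fell from 237, 246 and 235 CPM in the control libraries to 145, 139 and 138 CPM with BAL101553 (log2 fold change -0.77 ± 0.08 (SE), adjusted p = 0.00608). Sin3b passed in each fit that left out 1 library. This list lost most of its calls, with 1 higher without control replicate 1, 0 without control replicate 3, 3 without BAL101553 replicate 3 and 6 without BAL101553 replicate 1, while its median ran from 0.20 to 0.24.

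DNA methylation enzymes gave 6 higher and none lower of 21 (median 0.29). Tet2, which oxidizes 5-methylcytosine, had 10.4, 9.24 and 8.91 CPM in the control libraries and 26.5, 30.3 and 23.3 CPM in the BAL101553 libraries (log2 fold change 1.48 ± 0.14 (SE), adjusted p = 0.00608), and Tet3 went from 44.1, 45.8 and 47.5 CPM in the control libraries to 80.2, 81.7 and 81.9 CPM with BAL101553 (log2 fold change 0.83 ± 0.08 (SE), adjusted p = 0.00608). Both passed in each fit that left out 1 library. The count was 2 without control replicate 1 and 2 without control replicate 3.

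Clock genes gave 5 higher and none lower of 21. All 3 period genes, the negative arm of the clock, were among them. Per2 had 0.806, 1.35 and 1.26 CPM in the control libraries and 2.67, 4.19 and 3.01 CPM in the BAL101553 libraries (log2 fold change 1.52 ± 0.31 (SE), adjusted p = 0.021), Per3 1.02, 0.567 and 0.867 CPM in the control libraries and 2.28, 2.24 and 1.71 CPM in the BAL101553 libraries (log2 fold change 1.35 ± 0.31 (SE), adjusted p = 0.0306) and Per1 24.3, 26.7 and 27.5 CPM in the control libraries and 37.1, 44.2 and 56.7 CPM in the BAL101553 libraries (log2 fold change 0.81 ± 0.16 (SE), adjusted p = 0.0192). The hour of harvest is not given in the sources used here. The count was 1 without control replicate 1 and 0 without control replicate 3, and 3 without control replicate 2, BAL101553 replicate 1 or BAL101553 replicate 3.

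Nuclear receptors gave 7 higher and 2 lower of 29. The orphan receptors Nr4a3 (0.297, 0.319 and 0.749 CPM in the control libraries and 2.54, 2.36 and 3.81 CPM in the BAL101553 libraries) and Nr4a2 (4.8, 6.38 and 3.98 CPM in the control libraries and 16, 21.1 and 16.4 CPM in the BAL101553 libraries) rose by log2 fold changes of 2.67 and 1.82, and both passed in each fit that left out 1 library. Without control replicate 1 or BAL101553 replicate 3 the count of higher members was 3, and without control replicate 3 it was 2. Amino acid and neurotransmitter transporters gave 7 higher and none lower of 34. Slc7a2, a cationic amino acid carrier, went from 1.66, 2.55 and 2.13 CPM in the control libraries to 7.72, 4.04 and 9.18 CPM with BAL101553 (log2 fold change 1.72 ± 0.34 (SE), adjusted p = 0.019). That count fell to 1 without control replicate 1, control replicate 3 or BAL101553 replicate 3, to 3 without control replicate 2 and to 4 without BAL101553 replicate 2.

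Lists on the making and breakdown of protein differed in direction. Of 81 cytosolic ribosomal protein genes, none was higher and 29 were lower, against 6.09% lower among all genes tested, with a median of -0.40. Rps16, of the small subunit, had 579, 487 and 599 CPM in the control libraries and 302, 452 and 344 CPM in the BAL101553 libraries (log2 fold change -0.60 ± 0.16 (SE), adjusted p = 0.0441). Rpl22l1, a ribosomal protein paralog, had 86.4, 68.7 and 100.2 CPM in the control libraries and 42.5, 66.3 and 47.5 CPM in the BAL101553 libraries (log2 fold change -0.71 ± 0.19 (SE), adjusted p = 0.0473). The groups did not overlap, which the naming rule required and which held in this direction for 19.1% of all genes tested. BAL101553 replicate 2 lay close to control replicate 2 in both genes. The number of calls rested on single libraries: it was 0 without control replicate 1, 0 without control replicate 3, 0 without BAL101553 replicate 3, 2 without BAL101553 replicate 1 and 55 without BAL101553 replicate 2. The median stayed between -0.48 and -0.31 under every setting. Ribosomal protein genes have many processed pseudogenes, so reads shared with such copies leave each value uncertain.

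Translation factors gave none higher and 11 lower of 61. Eif4g2, an initiation factor, went from 1413, 1299.6 and 1351 CPM in the control libraries to 899, 1047 and 947 CPM with BAL101553 (log2 fold change -0.49 ± 0.10 (SE), adjusted p = 0.02), and Eef2, the translocation factor, went from 3583, 3190.3 and 3652 CPM in the control libraries to 2547, 2803 and 2170.3 CPM with BAL101553 (log2 fold change -0.47 ± 0.12 (SE), adjusted p = 0.0416). The count was 1 without control replicate 1, 0 without control replicate 3, 1 without BAL101553 replicate 3, 3 without control replicate 2 and 4 without BAL101553 replicate 1. Mitochondrial ribosomal proteins gave none higher and 8 lower of 76 (median -0.25), and the count was 0 without control replicate 1 or control replicate 3, 2 without BAL101553 replicate 1 and 3 without BAL101553 replicate 3. Aminoacyl-tRNA synthetases gave none higher and 3 lower of 37 (median -0.02).

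Proteasome subunits gave none higher and 12 lower of 44 (median -0.26). Psmd8, of the regulatory lid, had 186, 155 and 184 CPM in the control libraries and 101, 124 and 109.9 CPM in the BAL101553 libraries (log2 fold change -0.65 ± 0.11 (SE), adjusted p = 0.0143), and Psmd13 went from 95.6, 85.9 and 95 CPM in the control libraries to 66.6, 62.4 and 64.5 CPM with BAL101553 (log2 fold change -0.51 ± 0.08 (SE), adjusted p = 0.0132). The count was 1, 0 and 3 without control replicate 1, control replicate 3 and BAL101553 replicate 3, and 7 without control replicate 2 or BAL101553 replicate 1. Cytosolic chaperones gave 2 higher and 8 lower of 45. Cct7, of the CCT chaperonin that folds actin and tubulin, fell from 499.9, 519 and 527 CPM in the control libraries to 353, 356 and 386 CPM with BAL101553 (log2 fold change -0.50 ± 0.09 (SE), adjusted p = 0.014). The inducible Hsp70 gene Hspa1b rose from 24, 22 and 39.7 CPM in the control libraries to 66.5, 64.2 and 59.6 CPM with BAL101553 (log2 fold change 1.15 ± 0.21 (SE), adjusted p = 0.0172), a gene with a near-identical neighbor whose reads may be shared. Among all genes tested, 8.64% were higher and 6.09% lower. Cullins, HECT ligases and deubiquitinases gave 5 higher (6.49%) and 1 lower (1.3%) of 77 (median 0.04). Autophagy genes gave 1 higher (2.38%) and 4 lower (9.52%) of 42. Unfolded protein and integrated stress response genes gave 7 higher (17.1%) and 1 lower (2.44%) of 41. Without control replicate 3 no member of these 3 lists was called in either direction. Without control replicate 1 only 3 stress response genes were called, all higher. Stress response genes called higher numbered 3, 3 and 1 without control replicate 2, BAL101553 replicate 1 and BAL101553 replicate 3, and the ligase and deubiquitinase list gave 2, 1 and 2. Autophagy genes called lower numbered 1, 0, 1 and 0 without control replicate 2 and BAL101553 replicates 1, 2 and 3. Chaperones called lower numbered 2 without control replicate 1, BAL101553 replicate 1 or BAL101553 replicate 3, 0 without control replicate 3 and 4 without control replicate 2.

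The nuclear-encoded respiratory chain gave none higher and 23 lower of 77 (median -0.28). Ndufa12, of complex I, had 68.5, 60.8 and 75.9 CPM in the control libraries and 43.3, 47 and 42.1 CPM in the BAL101553 libraries (log2 fold change -0.63 ± 0.11 (SE), adjusted p = 0.014), and Cox5a, of complex IV, went from 118, 99.5 and 109.6 CPM in the control libraries to 67.9, 79.9 and 66.4 CPM with BAL101553 (log2 fold change -0.61 ± 0.11 (SE), adjusted p = 0.0149). The count was 2 without control replicate 1, 0 without control replicate 3, 3 without BAL101553 replicate 3, 7 without BAL101553 replicate 1 and 15 without control replicate 2, with medians between -0.34 and -0.26. Glycolysis gave 1 higher and 1 lower of 25, and cholesterol synthesis 1 and 1 of 34. Oxidant defence genes gave 3 higher and 10 lower of 50. Prdx5, a peroxiredoxin, fell from 398, 278 and 380.0 CPM in the control libraries to 234, 202 and 196 CPM with BAL101553 (log2 fold change -0.74 ± 0.15 (SE), adjusted p = 0.0206). Their count of lower genes was 2, 0, 5 and 4 without control replicate 1, control replicate 3, BAL101553 replicate 1 and BAL101553 replicate 3.

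Arginine and polyamine genes gave 2 higher and 4 lower of 27. Arginase 1 (Arg1) fell from 74.7, 18.1 and 32.4 CPM in the control libraries to 4.67, 3.82 and 4.95 CPM with BAL101553 (log2 fold change -3.21 ± 0.49 (SE), adjusted p = 0.011) and passed in each fit that left out 1 library. Nos2, which uses the same substrate to make nitric oxide, had 0.297, 0.425 and 0.158 CPM in the control libraries and 2.99, 1.2 and 0.94 CPM in the BAL101553 libraries (log2 fold change 2.51 ± 0.58 (SE), adjusted p = 0.0297). Both enzymes are also known from myeloid cells, and the microglia and macrophage markers stood at the levels given above, most of them below 1 CPM in all 6 libraries. The count of lower genes was 2 without control replicate 1 or BAL101553 replicate 1 and 1 without control replicate 3 or BAL101553 replicate 3. Nos2 averaged under 10 counts in controls, so it could pass the filter only through the BAL101553 libraries.

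The list of actin, myosin and related contractile genes was drawn up to take in genes that depend on serum response factor. Of 40 tested, 15 were called lower, 1 was higher and 24 did not pass (median -0.29). The cytoplasmic actin Actg1 had 6556, 5301 and 5946 CPM in the control libraries and 3906, 3302 and 2540.0 CPM in the BAL101553 libraries (log2 fold change -0.87 ± 0.17 (SE), adjusted p = 0.0189). Smooth muscle actin (Acta2) went from 841, 656 and 704 CPM in the control libraries to 513, 443 and 361 CPM with BAL101553 (log2 fold change -0.74 ± 0.15 (SE), adjusted p = 0.022), and calponin 2 (Cnn2) went from 815, 660.1 and 730.0 CPM in the control libraries to 482, 467 and 363 CPM with BAL101553 (log2 fold change -0.75 ± 0.14 (SE), adjusted p = 0.0166). Mylk, the myosin light chain kinase, was the member that rose, from 4.03, 7.26 and 2.52 CPM in the control libraries to 16.4, 8.61 and 12.9 CPM with BAL101553 (log2 fold change 1.45 ± 0.39 (SE), adjusted p = 0.0445). No member was called lower without control replicate 1 or control replicate 3, 4 without BAL101553 replicate 3, 10 without control replicate 2 and 7 without BAL101553 replicate 1, and the median stayed between -0.48 and -0.20 under every setting.

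Serum response factor binds the CArG box. That motif was searched on both strands in the stretch of bases around each RefSeq start shown here. It was found in 7 of the 33 contractile genes with a listed promoter (21.2%). Among the 9609 genes tested with a listed promoter, the share was 1.62%. Since the list was drawn up with genes that depend on this factor, the excess follows from that choice. Within the list, the motif was found in 3 of 14 called members and in 4 of 19 not called. The 3 called members are shown with the motif in capitals, on GRCm38.p6, written in the direction of the gene.
Actg1, chr11:120348446-120348745, minus strand: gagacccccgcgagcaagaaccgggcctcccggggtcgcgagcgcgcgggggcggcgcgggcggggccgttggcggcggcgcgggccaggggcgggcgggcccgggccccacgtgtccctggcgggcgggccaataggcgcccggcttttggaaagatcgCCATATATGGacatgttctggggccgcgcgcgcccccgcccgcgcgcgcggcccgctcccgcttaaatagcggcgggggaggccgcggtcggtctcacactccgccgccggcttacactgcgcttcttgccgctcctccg
Cnn2, chr10:79988350-79988649, plus strand: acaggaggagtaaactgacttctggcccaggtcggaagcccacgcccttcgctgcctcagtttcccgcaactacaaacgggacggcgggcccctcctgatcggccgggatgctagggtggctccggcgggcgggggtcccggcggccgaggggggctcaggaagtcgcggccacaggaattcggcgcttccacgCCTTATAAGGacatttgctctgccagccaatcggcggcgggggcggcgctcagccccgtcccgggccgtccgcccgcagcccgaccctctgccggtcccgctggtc
Myl6, chr10:128492960-128493259, minus strand: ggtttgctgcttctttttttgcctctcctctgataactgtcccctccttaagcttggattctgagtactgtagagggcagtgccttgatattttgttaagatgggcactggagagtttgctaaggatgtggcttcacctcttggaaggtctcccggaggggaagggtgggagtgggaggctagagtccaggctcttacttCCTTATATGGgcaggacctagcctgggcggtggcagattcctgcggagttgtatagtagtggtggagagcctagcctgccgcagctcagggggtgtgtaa

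A match is a description of these letters and does not show binding. Among the clock genes, the E-box CACGTG was found in 1 of 4 called members with a listed promoter, Per1, and in 4 of 14 not called. Among the 9609 genes tested with a listed promoter, the share was 11.9%.

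Adhesion and lineage genes moved in smaller numbers. Classical cadherins and gap junction genes gave none higher and 4 lower of 27 (14.8%), against 6.09% lower among all genes tested. This count of lower genes was 0 without control replicate 1, control replicate 3 or BAL101553 replicate 3 and 1 without control replicate 2. Cdh5, known as the endothelial cadherin, fell from 725, 657 and 771 CPM in the control libraries to 537, 464 and 498 CPM with BAL101553 (log2 fold change -0.52 ± 0.10 (SE), adjusted p = 0.0195) in libraries where the endothelial marker Pecam1 was near 1 CPM or below. Neural and glial lineage factors gave 4 higher and 2 lower of 22. Nestin (Nes), an intermediate filament of neural stem cells, fell from 707, 497 and 615 CPM in the control libraries to 339.5, 256 and 271 CPM with BAL101553 (log2 fold change -1.07 ± 0.16 (SE), adjusted p = 0.0104). The count of higher factors was 2 without control replicate 1 and 1 without control replicate 3. Pdgfra, a progenitor and mesenchymal receptor, rose from 161, 188 and 119 CPM in the control libraries to 286, 305 and 314 CPM with BAL101553 (log2 fold change 0.95 ± 0.16 (SE), adjusted p = 0.0134) and passed in each fit that left out 1 library.

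Several lists on microtubules and the cell cycle had few calls. Mitotic genes gave 3 higher and 1 lower of 50 (median -0.02), and replication genes 1 higher and 2 lower of 53. Microtubule-associated proteins gave 1 called of 36, dynein and cilium genes 2 of 46 and DNA repair genes 3 of 64, against 14.7% of all genes tested. None of 15 histone genes passed in edgeR's quasi-likelihood test, 1 had an unadjusted p under 0.05, and DESeq2 and limma-trend called 0. A p that misses the threshold does not show that levels were equal. Mid1, a microtubule-binding ubiquitin ligase, was the associated protein that rose, from 16.8, 19.6 and 21 CPM in the control libraries to 32.6, 49.8 and 45.5 CPM with BAL101553 (log2 fold change 1.16 ± 0.17 (SE), adjusted p = 0.0104), and it passed in each fit that left out 1 library. Other lists were not short of calls. The kinesin superfamily, the motors that mostly walk to the plus end, gave 6 higher and 1 lower of 41 (median 0.20), against 8.64% higher among all genes tested. That count of higher genes was 3 without control replicate 1 or BAL101553 replicate 3 and 1 without control replicate 3. Of the p53 targets, 2 were higher and 2 lower of 33, a share near that of all genes.

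Over the whole table, the largest rises outside the matrix included Gli1 and Lcn2. Gli1, a target and effector of Hedgehog signaling, had 3 counts in all over the controls and 107 with BAL101553, a ratio of 29.3 with a 95% exact counting interval of 9.75 to 144. Sp140, a nuclear body protein, had 2 and 165 counts (ratio 67.7, interval 18.5 to 564). These intervals pool the libraries of a group and cover counting error only, not the spread between libraries. With BAL101553, counts per library were 24, 60 and 23 for Gli1 and 12, 95 and 58 for Sp140. Gli1 passed in 5 and Sp140 in 2 of the 6 fits that left out 1 library. Gli1, Sp140 and Lcn2 averaged under 10 counts in controls, so they could pass the filter only through the BAL101553 libraries. Their ratios, intervals and place among the largest rises are therefore no separate support for a rise. Lcn2, an iron-binding secreted protein, had 0, 0.142 and 0.0789 CPM in the control libraries and 2.9, 1.83 and 0.608 CPM in the BAL101553 libraries (log2 fold change 4.45 ± 0.84 (SE), adjusted p = 0.0184).

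The largest falls included muscle troponins. Tnni1 had 12.1, 5.45 and 6.94 CPM in the control libraries and 0.965, 0.973 and 1.44 CPM in the BAL101553 libraries (log2 fold change -2.85 ± 0.36 (SE), adjusted p = 0.00728) and Tnnt2 went from 24.3, 13.9 and 25.4 CPM in the control libraries to 5.6, 2.51 and 3.57 CPM with BAL101553 (log2 fold change -2.44 ± 0.34 (SE), adjusted p = 0.00878), and both passed in each fit that left out 1 library. Lad1, a basement membrane anchor protein, had 22.9, 11.4 and 19.9 CPM in the control libraries and 2.54, 1.31 and 4.7 CPM in the BAL101553 libraries (log2 fold change -2.64 ± 0.45 (SE), adjusted p = 0.0136). Nkain2, a membrane protein gene, fell from 1.61, 0.921 and 1.42 CPM in the control libraries to 0, 0.0748 and 0.111 CPM with BAL101553 (log2 fold change -4.28 ± 0.64 (SE), adjusted p = 0.0104). Nkain2 averaged under 10 counts with BAL101553, so it could pass the filter only through the control libraries. Its place among the largest falls is therefore no separate support for a fall.

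Calls also followed transcript length and level. With genes cut into 10 equal bins by transcript length, in the shortest bin, up to 1439 bases, 5.02% of genes were called higher and 11.8% lower, and in the longest 19.3% and 1.75%. Across genes, Spearman's rho between log2 fold change and length was 0.24, and genes are not independent replicates. By mean CPM, in the most abundant of 10 bins, 5.3% were higher and 15.7% lower, and in the least abundant 9.65% and 1.27%. With the length and GC trend removed, 30 ribosomal, 25 respiratory and 14 proteasome genes were lower, and 11 collagens were higher. Scaled to library totals, 15, 11 and 6 of those genes were lower.

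**Figure D4:**
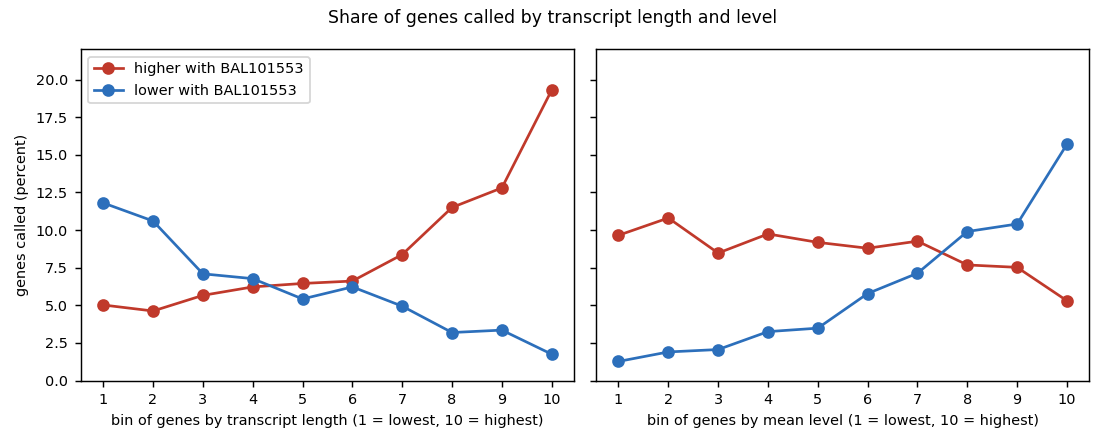
Percent of genes called higher (red) and lower (blue) in each of 10 equal bins of genes by transcript length (left) and by mean CPM (right). Calls of higher genes go from 5.02% in the shortest to 19.3% in the longest bin, and calls of lower genes from 1.27% in the least to 15.7% in the most abundant bin.

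Chromosomes differed in their share of calls. On chromosome 12, 14.4% of 437 genes were higher and 1.14% lower (median 0.15), and on chromosome 7, 4.04% of 915 were higher and 12.6% lower (median -0.13). Chromosome 12 lay between 0.10 and 0.18 in the 3 BAL101553 libraries and between -0.02 and 0.04 in controls. Chromosome 7 lay at -0.28, -0.03 and -0.09 in the BAL101553 libraries, the second of which was within the range of the controls. The X chromosome lay at -0.20, 0.05 and -0.26, so the libraries of 1 group were unlike each other there.

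**Figure D5:**
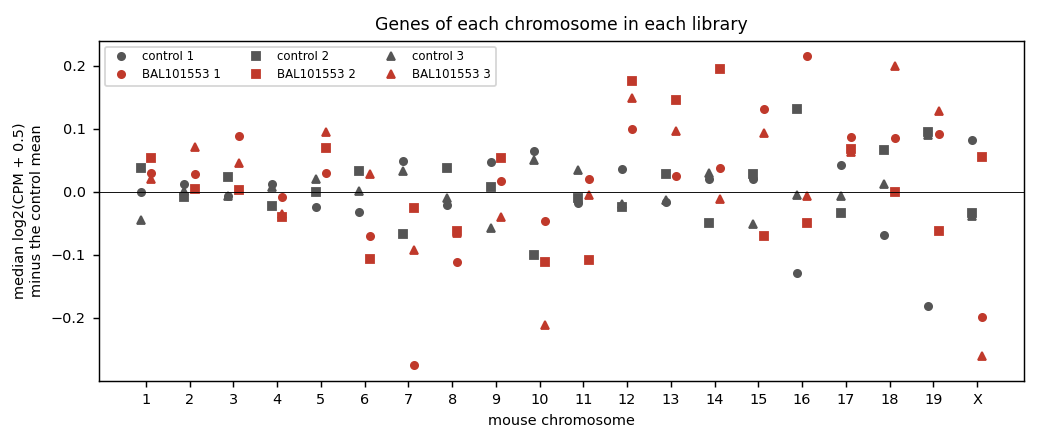
Median over the genes of each chromosome of log2(CPM + 0.5) minus the control mean, 1 point per library. Chromosome 12 is higher in all 3 BAL101553 libraries, whereas chromosomes 7 and X differ among them.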

How the data were processed

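RNA was sequenced from sorted SB28 tumor cells (3 control and 3 BAL101553 libraries), with 50-base reads. The authors deposited raw counts per gene. Per the labels they used mm10, TopHat and HTSeq 0.6.1. The aligner's settings and the counting strand are not given in the sources used here. Groups came from the sample titles. Counts were filtered with filterByExpr (minimum count 10), scaled by TMM and tested two-sided with edgeR 4.0.16 (glmQLFit, R 4.3.3) and p-values were adjusted by Benjamini-Hochberg across the genes kept. CPM were computed from TMM-scaled library sizes. DESeq2 1.42.0, limma 3.58.1 (prior count 2), other scalings, filters, libraries and a length and GC correction (splines with 4 degrees of freedom) were alternatives. The fit was tested on simulated data.

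Functional lists and the lists of other cells' markers were chosen with earlier results of these data known. A gene is named if it passed, its groups did not overlap, its mean reached 1 CPM in the higher group and it was among the 10 largest rises or falls of the table or among up to 3 rises and 3 falls of a described list. A list was described if at least 4 members were called and its share in 1 direction was at least 2 times that of all genes, or if at least 15 members were tested and few were called. Interferon, checkpoint and tubulin genes and 27 rows whose names a spreadsheet turned into dates were not named. Col1a1, Col3a1, Neat1, Myl6, Rpl12, the snoRNAs and the markers of other cells fall outside this rule and were chosen after their values were seen. Some genes picked by the rule are not reported here. Annotation was GENCODE vM21, matched by symbol, and promoters were RefSeq's. The depth was at least 24540452 counts per library, and the median biological coefficient of variation was 14.6%.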

Additional observations from a re-analysis of the deposited data

Results flagged for a closer look

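Libraries outside the comparison held a signal that the control libraries did not. In the 3 libraries labelled astrocytes, 325 genes reached at least 10 CPM in every library while staying under 0.1 CPM in all 6 tumor cell libraries. They were not used in any result above. Groups of 3 libraries are too small for the check on single outlying libraries.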

How the results depend on the processing

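The number of genes called depended more on which libraries were used than on scaling or filters. It was 1860 as reported, 2832 with DESeq2, 3022 with all 9 libraries in 1 model, 1 with control replicate 3 and BAL101553 replicate 1 left out together (2673 genes had an unadjusted p under 0.05) and 833 with control replicate 1 and BAL101553 replicate 2 left out together, a choice made after seeing the data. With 1 library left out it ran from 193 to 1712. Limma-trend, other scalings, other filters and the length and GC correction gave 1742 to 1978, with 757 higher and 1221 lower under that correction and 1456 higher and 425 lower under library totals. With the replicate number as a block 1371 genes were called, 1208 of them among the 1860. Deviations of same-numbered libraries correlated at 0.14, 0.01 and 0.15, so the numbers were not taken as pairs. The cause of these shifts was not tested.

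No named gene changed sign under any alternative. Of 630 medians of functional lists under an alternative, 35 had the other sign, and in 10 of these the median as reported exceeded its spread between libraries, a criterion set after seeing the data. Notch genes ran from -0.0026 (without control replicate 1) to 0.278 with 1 library left out and went to -0.10 with the length and GC correction. TNF family genes went to 0.10 with genes of a single count kept and to 0.12 with all 9 libraries. Histone methylation genes went to -0.0403 with the length and GC correction, and oxidant defence genes to 0.0108 with library totals. Synaptic adhesion genes went to -0.28 with genes of a single count kept, -0.11 with all 9 libraries and -0.0937 with the length and GC correction, and ran from -0.061 (without BAL101553 replicate 2) to 0.28 with 1 library left out. Depth limits genes of a few counts, such as most snoRNAs.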
